A study of Mus musculus with 36 samples.

Results

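The long noncoding RNAs Malat1, Neat1, Mir155hg, Gas5, Snhg1, Snhg5, Snhg12 and Meg3 were followed through all 12 treatment groups of RAW 264.7 cells, a macrophage-like mouse cell line. These 8 members were picked by gene symbol from the 53465 genes of the table, so no measured value entered the rule, but the set was proposed with earlier results of these data in view. Adjusted p-values for them therefore describe these libraries and are not independent evidence. RNA was sequenced from 36 bulk libraries, 3 in each group, all of wild-type cells collected after 12 h. Cells received melatonin at 0.1 µM, 1 µM, 10 µM, 100 µM or 1 mM followed 30 min later by lipopolysaccharide (LPS, an outer membrane component of Gram-negative bacteria) at 10 µg/mL, or LPS at 10 µg/mL, or melatonin at one of the same 5 doses, or solvent. Nothing in the labels says that the 3 libraries of one treatment are separate cultures, so every p-value reflects library-to-library spread only, possibly technical.

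The members work in different ways. Malat1 and Neat1 are neighbouring, largely unspliced and nuclear-retained RNAs: Malat1 gathers at nuclear speckles, the stores of splicing factors, and the long form of Neat1 is the scaffold of paraspeckles. Mir155hg is the spliced precursor of miR-155, a microRNA of activated macrophages that lowers the output of many messenger RNAs through a match to its seed. Gas5, Snhg1, Snhg5 and Snhg12 carry small nucleolar RNAs (snoRNAs) in their introns, and the spliced remainder is a target of nonsense-mediated decay; Meg3 is an imprinted RNA expressed from the maternal chromosome.

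The miR-155 hairpin is shown because it is the product that Mir155hg is known for. It lies at chr16:84714140-84714204 on the plus strand (GRCm38.p6, RefSeq), in exon 2 of 2 of both annotated Mir155hg transcripts, an exon that spans chr16:84714053-84715245. Capitals in the hairpin mark the mature strands, and capitals in the mature strands mark the seed, bases 2 to 8.
Mir155 hairpin: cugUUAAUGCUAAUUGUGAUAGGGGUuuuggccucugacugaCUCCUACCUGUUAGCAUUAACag
miR-155-5p: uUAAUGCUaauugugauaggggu
miR-155-3p: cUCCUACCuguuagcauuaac

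The starts of the 4 snoRNA hosts are shown because such genes are known for a run of pyrimidines at the start of the RNA, the feature that also marks the messenger RNAs of the translation machinery. Each window holds 60 bases around the RefSeq start (GRCm38.p6), with the longest unbroken run of C and T within 20 bases of the start in capitals. That run need not begin at the start itself: it began at base 5 in Snhg1, 8 in Snhg5, -3 in Snhg12 and -1 in Gas5. In order, the windows are chr19:8723457-8723516 (plus strand), chr4:132308648-132308707 (plus), chr9:88522868-88522927 (minus) and chr1:161035136-161035195 (plus, the second of 2 listed starts).
Snhg1: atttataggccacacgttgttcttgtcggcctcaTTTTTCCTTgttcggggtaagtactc
Snhg12: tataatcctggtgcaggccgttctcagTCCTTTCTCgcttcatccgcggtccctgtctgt
Snhg5: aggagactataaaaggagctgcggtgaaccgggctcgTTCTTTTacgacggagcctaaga
Gas5: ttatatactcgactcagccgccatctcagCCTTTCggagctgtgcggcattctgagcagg
The run was 9 bases long in Snhg1 and Snhg12, a length reached in 10.7% of 32851 RefSeq promoters searched the same way. It was 7 bases in Snhg5 (reached in 24.3%) and 6 in Gas5 (37.5%), against a median of 5 over all promoters. At the first listed start of Gas5, not shown, the run was 3 bases (reached in 93.7%), and in Mir155hg, which holds no snoRNA, it was 8 (16%).

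Libraries held 4203313 to 7590271 counts, and a count of 0 allows up to 3 counts, or 0.395 to 0.714 CPM (counts scaled to 1000000 per library), as far as counting error alone goes. All 8 macrophage markers were tested and averaged 21.0 to 6343 CPM, whereas markers of fibroblasts, epithelial cells, T cells, B cells and neutrophils were at or near 0 (the highest, Col1a1, averaged 0.792 CPM). Of the 36 libraries, 32 correlated most with their own group in their deviations over 6747 genes. The other 4 were all 3 libraries of melatonin 1 µM and replicate 3 of melatonin 1 mM. Replicate 1 of melatonin 1 µM was nearer to melatonin 1 mM (r = 0.186) than to its own group (r = -0.27), and replicate 3 of melatonin 1 mM was nearer to melatonin 100 µM (r = 0.021, own group -0.16). Groups were kept as labelled, and a number of results are also given without these 2 libraries.

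Levels per length, in the authors' FPKM averaged over the 36 libraries, put Malat1 far above the other members at 420 FPKM. Snhg1 followed at 15.2 FPKM, then Snhg12 at 9.13, Neat1 at 8.13, Snhg5 at 5.90, Gas5 at 5.71 and Mir155hg at 4.19 FPKM. Meg3 was listed at 0.0238 FPKM. Malat1 alone took 0.126% to 0.527% of all counts of a library. All 8 members passed the filter on low counts, Meg3 through single libraries and Mir155hg through libraries with LPS. In the following, levels are in CPM, which do not depend on gene length and are compared only within a gene.

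Malat1 and Neat1 were lower after LPS than in solvent, and with LPS and 1 mM melatonin they were near their solvent levels. Malat1 (chr19:5795690-5802672, minus strand, mm10, GENCODE M21) was at 2350, 2198 and 2686 CPM in the LPS libraries, against 4064, 3788 and 4174 CPM in solvent. The groups did not overlap, and the fit put Malat1 lower after LPS by -0.73 ± 0.13 on the log2 scale (SE, n = 3 each, edgeR adjusted p = 2.37e-05). Neat1 (chr19:5824708-5845478, minus strand) was at 121, 101 and 118 CPM after LPS, against 219.5, 185 and 249 CPM in solvent. Its log2 fold change was -0.94 ± 0.24 (SE, n = 3 each, edgeR adjusted p = 0.00302), again with every LPS library below every solvent library. In bulk samples, less of an RNA per cell and fewer cells that hold it cannot be told apart. Malat1 and Neat1 passed the test in this comparison, where 16.5% of the 16988 genes tested did; Mir155hg entered the test only through libraries with LPS, and its levels are given in their place below. Ranges of 5 members did not overlap between LPS and solvent, against 31.3% of all genes tested. The 5 include Mir155hg, whose gap adds nothing to this count, since it entered only through libraries with LPS.

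Melatonin added to LPS came with less Malat1 at the lowest dose and more at the highest. At 0.1 µM Malat1 was at 1424, 1383 and 1725 CPM, below all 3 LPS libraries. It was at 1729, 1791 and 1800 CPM with 1 µM, 1918, 1964 and 1888 CPM with 10 µM, and 1713, 2074 and 1983 CPM with 100 µM. Each of these groups lay below the LPS group without overlap. With 1 mM the libraries were at 3772, 4755 and 2773 CPM, all above the LPS libraries and the widest spread of any group (SD 991). Relative to LPS, Malat1 fell by 0.67 ± 0.13 on the log2 scale with 0.1 µM (SE, n = 3 each, edgeR adjusted p = 0.00254). The log2 difference from LPS was -0.44 with 1 µM (adjusted p = 0.0960), -0.33 with 10 µM (adjusted p = 0.397) and -0.33 with 100 µM (adjusted p = 0.252), none past the threshold of 0.05. Malat1 rose by 0.64 ± 0.13 with 1 mM (SE, n = 3 each, edgeR adjusted p = 5.34e-04). A fit of the LPS and LPS with 1 mM libraries alone gave nearly the same difference, 0.65, with an adjusted p of 0.0828.

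Neat1 stayed near its LPS level up to 100 µM and was higher at 1 mM. It was at 154, 112 and 117 CPM with LPS and 0.1 µM melatonin, 81.6, 98.3 and 83.8 CPM with 1 µM, 92.0, 112 and 109 CPM with 10 µM, and 141, 111 and 125 CPM with 100 µM. Of these, only the 1 µM libraries all lay below the LPS libraries, and Neat1 passed the test against LPS at none of these 4 doses. With 1 mM it was at 257, 226 and 214 CPM, all above the LPS libraries. There Neat1 rose by 1.04 ± 0.24 on the log2 scale (SE, n = 3 each, edgeR adjusted p = 0.00273). Malat1 and Neat1 were the 2 members past the threshold at 1 mM against LPS, where 7.55% of all genes passed. Of those calls 37.6% were higher with TMM scaling and 73.4% with library totals alone, which moved the median over all genes by 0.24 on the log2 scale; on totals alone Malat1 was higher by 0.88 and Neat1 by 1.28. At 0.1 µM the count was 1 member with 1.36% of all genes, and at 1, 10 and 100 µM it was 0 members with 0.612%, 0.371% and 1.18%. The direct comparison of the highest with the lowest dose under LPS, added after the values were seen, gave log2 fold changes of 1.32 ± 0.13 for Malat1 (edgeR adjusted p = 6.85e-10). For Neat1 it gave 0.87 ± 0.24 (edgeR adjusted p = 0.0136), and 8.11% of all genes passed. Neat1 lost this call without replicate 2 or 3 of LPS with 0.1 µM melatonin (adjusted p = 0.0784 and 0.0592).

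**Figure D1:**
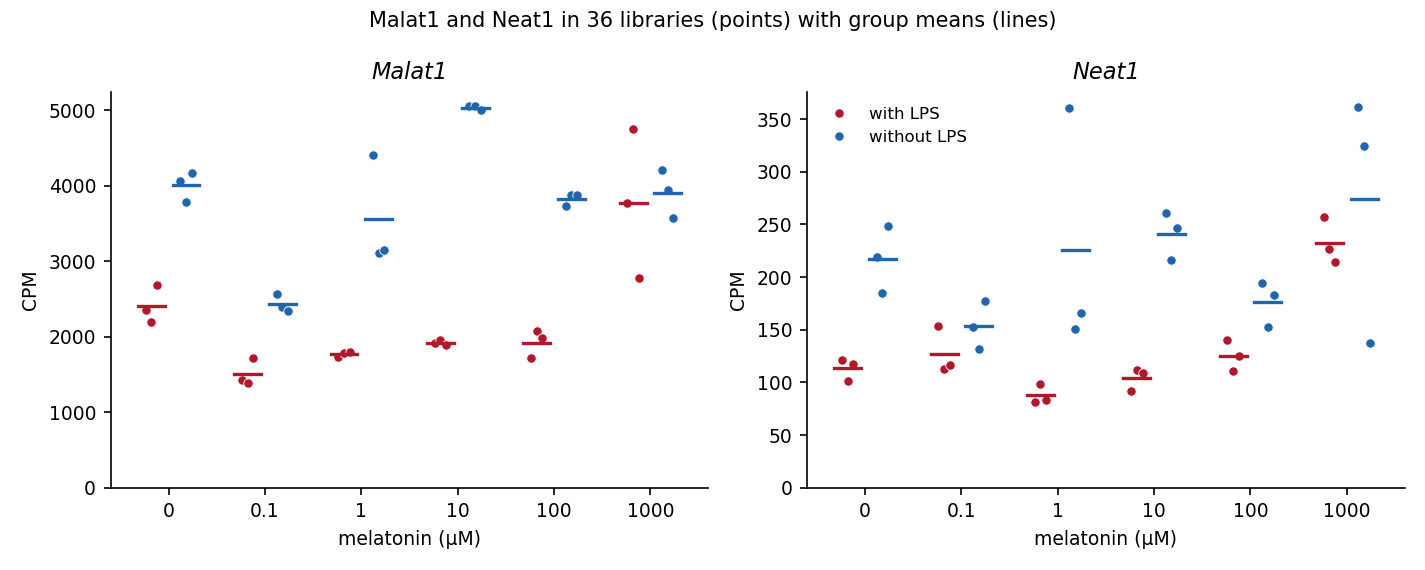
Malat1 (left) and Neat1 (right) in CPM (y axis) at each melatonin dose in µM (x axis; 0 marks LPS or solvent, 1000 is 1 mM), with LPS in red and without LPS in blue. Points are libraries and lines are means of 3. Malat1 with LPS lies between 1383 and 2686 CPM up to 100 µM and between 2773 and 4755 CPM at 1 mM, and melatonin 0.1 µM alone stands at 2335 to 2564 CPM, below solvent at 3788 to 4174 CPM.

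Without LPS, the lowest dose again stood apart for Malat1. Cells given 0.1 µM melatonin had 2564, 2389 and 2335 CPM of Malat1, against 3788 to 4174 CPM in solvent. The log2 fold change was -0.72 ± 0.13 (SE, n = 3 each, edgeR adjusted p = 0.00278), at levels that overlap those of the LPS libraries. At 10 µM it was at 5050, 5057 and 4996 CPM, above all other libraries of the series, yet the log2 difference of 0.33 ± 0.13 from solvent did not pass (adjusted p = 0.672). Replicates 1 to 3 were at 4404, 3106 and 3151 CPM with 1 µM, 3738, 3877 and 3873 CPM with 100 µM, and 4203, 3939 and 3577 CPM with 1 mM. Between melatonin 10 µM and melatonin 0.1 µM, a pair added after the values were seen, the log2 fold change of Malat1 was 1.05 ± 0.13 (SE, n = 3 each, edgeR adjusted p = 2.91e-06, 0.318% of all genes passed). Malat1 was the 1 member called at 0.1 µM against solvent, where 0.341% of all genes passed, and no member was called at 1, 10 or 100 µM or at 1 mM (0.147%, 0.0824%, 0.0824% and 0.418% of all genes).

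Neat1 with melatonin alone was at 152, 132 and 177 CPM at 0.1 µM, 261, 216 and 247 CPM at 10 µM, and 194, 152 and 183 CPM at 100 µM. The 2 libraries in doubt set its spread in the other groups. At 1 µM it was at 361 CPM in replicate 1 and at 151 and 166 CPM in the others, and at 1 mM it was at 362 and 325 CPM in replicates 1 and 2 and at 137 CPM in replicate 3. Neat1 passed against solvent at no dose with all 36 libraries. At 1 µM its log2 difference from solvent was 0.05 (adjusted p = 0.998), and -0.46 without the 2 libraries (adjusted p = 0.290). Without them it was higher with 1 mM melatonin than in solvent by 0.66 ± 0.16 on the log2 scale (SE, n = 2 against 3, edgeR adjusted p = 0.0113).

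The LPS difference was then taken at each melatonin dose, LPS with melatonin over the same dose of melatonin alone; all doses but 1 mM were added after the values were seen. For Malat1 the log2 fold change was -0.69 with 0.1 µM (adjusted p = 7.21e-05), -1.0 with 1 µM (6.67e-08), -1.39 with 10 µM (2.51e-11) and -0.99 with 100 µM (8.12e-08), each with an SE of 0.13. At 1 mM the groups overlapped, at 2773 to 4755 CPM with LPS and melatonin and 3577 to 4203 CPM with melatonin alone, and Malat1 did not pass. Neat1 fell by 1.36 ± 0.24 at 1 µM (edgeR adjusted p = 2.88e-05) and by 1.21 ± 0.24 at 10 µM (adjusted p = 1.55e-04), while its log2 difference of -0.49 at 100 µM did not pass (adjusted p = 0.162). At 1 mM Neat1 averaged 233 CPM with LPS and melatonin and 275 CPM with melatonin alone, a log2 difference of -0.24 ± 0.23 that did not pass (adjusted p = 0.635). Without the libraries in doubt, the value of Malat1 at 1 µM was -0.82 (adjusted p = 9.36e-07) and that of Neat1 -0.85 (adjusted p = 1.11e-04). Neat1 then passed at 100 µM with the same -0.49 (adjusted p = 0.0135), as it did with only the groups compared (0.00854), and at 1 mM (-0.56 ± 0.16, adjusted p = 0.0174). Of all genes, 15.7%, 15.4%, 16.1%, 16.8% and 9.62% passed from 0.1 µM to 1 mM.

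Whether the LPS difference at 1 mM differed from that without melatonin was tested as an interaction. For Malat1 it was 0.68 ± 0.18 on the log2 scale (SE, n = 3 in each of 4 groups, edgeR adjusted p = 0.0347), the 1 member called, with 1.69% of all genes. Leaving out 1 library in turn ended it in 8 of 12 cases, with values of 0.48 to 0.86 and adjusted p up to 0.184, and the 4 groups alone gave an adjusted p of 0.234. Without the 2 melatonin libraries in doubt it was 0.62 (adjusted p = 0.0269). The interaction of Neat1 was 0.70 ± 0.33 (adjusted p = 0.363), and 0.38 without those libraries (adjusted p = 0.473). At 0.1, 1, 10 and 100 µM no member passed, with 0.0118%, 0.0471%, 0.0235% and 0.418% of all genes. The interaction of Malat1 at 10 µM was -0.65, opposite in sign to that at 1 mM (edgeR adjusted p = 0.173). It passed without the libraries in doubt (adjusted p = 0.0357), without the filter on low counts (0.0187) and with only the groups compared (1.06e-04). With any 1 of the 12 libraries left out it did not pass (adjusted p = 0.198 to 0.455).

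**Figure D2:**
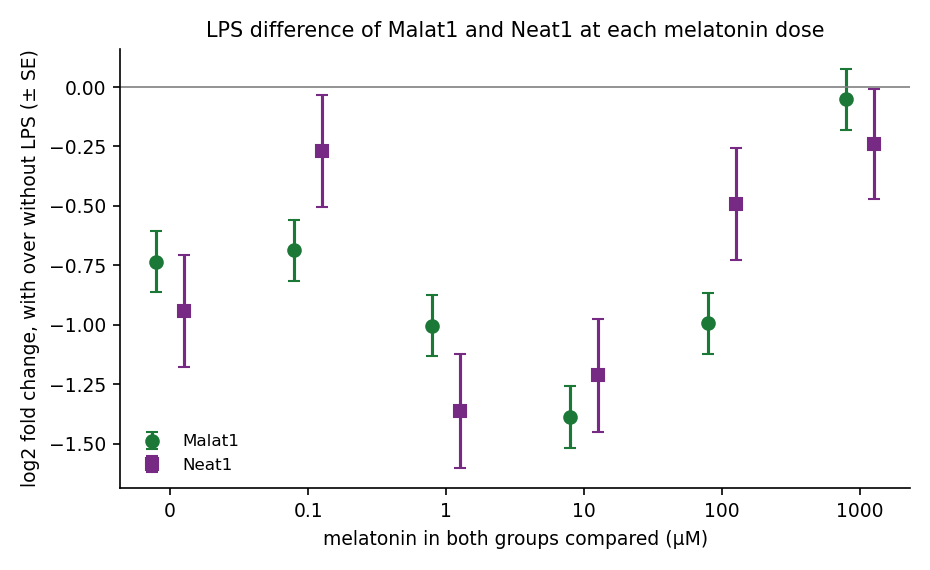
Log2 fold change of Malat1 (green circles) and Neat1 (purple squares) with LPS over without LPS (y axis) at the same melatonin dose in µM (x axis; 0 is LPS over solvent, 1000 is 1 mM). Bars are the SE of the fit. Malat1 is at -0.73 without melatonin, lowest at 10 µM (-1.39) and near 0 at 1 mM.

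Over the 12 groups, Malat1 and Neat1 moved alike (Pearson r = 0.894 between group means of log2 CPM, a description over 12 points, each the mean of 3 libraries scaled together). The highest group mean of Malat1, melatonin 10 µM, was 3.33 times the lowest, LPS with 0.1 µM melatonin. In the order of means, melatonin 10 µM stood clear of solvent. Below it, each neighbouring pair overlapped from solvent through melatonin 1 mM, melatonin 100 µM and LPS with 1 mM down to melatonin 1 µM. Melatonin 0.1 µM and LPS came next and overlapped, then LPS with 100 µM and LPS with 10 µM, which also overlapped. LPS with 1 µM and then LPS with 0.1 µM came last, each clear of the group next above it in mean. They were not clear of all groups, since LPS with 100 µM (1713 to 2074 CPM) overlapped both. For Neat1 all 11 neighbouring pairs overlapped, over a 3.12-fold range of means. The genes most like Malat1 over the 12 group means were Zfp263 (r = 0.972), Scarb2 and Safb (both 0.952), and those most like Neat1 were Dcaf8 (0.973), Fat1 (0.960) and Nckipsd (0.948), out of 8957 genes.

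Counts assigned to ribosomal RNA also differed between groups: their share averaged 0.631% with LPS, 0.536% with LPS and 1 mM melatonin, 0.410% with LPS and 0.1 µM, 0.866% with melatonin 0.1 µM, 0.343% with melatonin 10 µM and 0.915% in solvent. It was lowest with LPS and 1 µM (0.130%), 10 µM (0.215%) and 100 µM melatonin (0.242%). The part of these ribosomal RNA counts in the Malat1 and Neat1 results was not tested. Replicate 3 of LPS with 1 mM melatonin, the lowest of its group for both RNAs, was the least deep library, and without it Malat1 and Neat1 still passed against LPS.

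Protein partners and neighbours were read from lists. Among paraspeckle proteins, the gene of the RNA-binding protein Hnrnpr fell after LPS (-0.87 ± 0.27, 27.6 against 50.3 CPM in solvent), and none passed between LPS with 1 mM melatonin and LPS by edgeR (3 at an unadjusted p under 0.05) or by DESeq2. Hnrnpr lost its call without solvent replicate 1 or LPS replicate 2 (adjusted p up to 0.155). The median log2 fold change of this list was -0.05 after LPS, against -0.02 over all genes. Of 22 nuclear speckle and splicing proteins, 4 fell after LPS, beside 16.5% of all genes called in either direction: the splicing factors Srsf5 (-0.52) and Srsf1 (-0.43) and the speckle proteins Pnn (-0.52) and Luc7l3 (-0.48). With LPS and 1 mM melatonin, Srrm1 (-0.52) and Srsf3 (-0.42) of the same list fell relative to LPS, beside 7.55% of all genes. Every one of these 6 calls was lost without 1 or another of the 6 libraries compared, in 2 cases of 6 for Srsf5 and Pnn, 3 for Luc7l3 and Srrm1, 4 for Srsf3 and 5 for Srsf1, with adjusted p up to 0.183. Of the 6 tested genes beside Malat1 and Neat1 on chromosome 19, 0 passed after LPS (0 at an unadjusted p under 0.05, 0 by DESeq2) and 1, Sssca1, rose with LPS and 1 mM melatonin (0.98 ± 0.27, 39.1 against 19.9 CPM with LPS, edgeR adjusted p = 0.0178), a call lost without LPS replicate 1, 2 or 3 or LPS with 1 mM replicate 1 (adjusted p up to 0.147). Of 11 other nuclear or regulatory long noncoding RNAs, Ptgs2os2, transcribed beside the cyclooxygenase gene Ptgs2, rose after LPS (3.01 ± 0.66, 39.1 against 4.80 CPM in solvent, adjusted p = 5.72e-04). It fell with LPS and 1 mM melatonin (-2.06, 9.40 against 39.1 CPM with LPS, adjusted p = 0.0319). Firre, a nuclear RNA of the X chromosome, fell after LPS (-0.94 ± 0.30, 27.1 against 52.2 CPM, adjusted p = 0.0219) and rose with LPS and 1 mM (1.14 ± 0.30, 59.9 against 27.1 CPM, adjusted p = 0.00987). Kcnq1ot1, an imprinted antisense RNA, fell there by 0.42 (adjusted p = 0.0327). In both comparisons the calls of Firre were lost without LPS replicate 1 or 3, after LPS also without solvent replicate 1 or 3 and at 1 mM without LPS with 1 mM replicate 2 (adjusted p up to 0.204). At 1 mM the call of Ptgs2os2 was lost without any 1 of the 6 libraries (up to 0.120) and that of Kcnq1ot1 without any but LPS with 1 mM replicate 2 (up to 0.161). Scaling by library totals alone also ended the 1 mM calls of Srrm1, Srsf3, Ptgs2os2 and Kcnq1ot1. With only the groups compared in the fit, those of Srrm1, Srsf3, Kcnq1ot1, Firre and Sssca1 were lost. Without the filter on low counts, the LPS calls of Luc7l3 and Srsf1 and the 1 mM calls of Srsf3 and Kcnq1ot1 were lost.

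Mir155hg was found almost only with LPS, and its level was lower in every library that had also received melatonin. The gene spans chr16:84703167-84715245 on the plus strand (mm10, GENCODE M21). LPS libraries were at 26.4, 24.0 and 36.7 CPM, from 577 counts in all, and the 3 solvent libraries held 0 counts. Against a floor of 3 counts over the 3 solvent libraries this was at least 183-fold higher with LPS. With LPS and melatonin the levels were 11.8, 15.0 and 16.7 CPM at 0.1 µM, 6.64, 6.02 and 9.98 CPM at 1 µM, and 16.1, 7.11 and 6.38 CPM at 10 µM. They were 7.93, 2.05 and 9.56 CPM at 100 µM and 5.67, 2.01 and 7.18 CPM at 1 mM. The 3 LPS libraries lay above all 15 libraries with LPS and melatonin, whose group means were 49.8%, 26.0%, 33.9%, 22.4% and 17.1% of the LPS mean from 0.1 µM to 1 mM. Neighbouring dose groups overlapped from 1 µM upward.

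None of the 5 differences from LPS passed for Mir155hg over all genes. The log2 fold change was -2.55 ± 0.83 at 1 mM (SE, n = 3 each, edgeR adjusted p = 0.0519), and at 1 µM and 100 µM it was -1.94 (adjusted p = 0.327) and -2.15 (adjusted p = 0.234). At 1 mM it passed without the filter on low counts (adjusted p = 0.0271), without the 2 melatonin libraries in doubt (0.0387), with the compared groups alone (0.00765) and by DESeq2 (0.0169). It did not pass with either other scaling. With any 1 of the 6 compared libraries left out, Mir155hg also did not pass there (edgeR adjusted p = 0.0823 to 0.206). Without LPS the RNA was at or near 0: the 3 libraries of a group held 19 counts with 0.1 µM melatonin (13, 0 and 6), 1 with 1 µM, 7 with 10 µM, 9 with 100 µM and 0 with 1 mM, and 0 in solvent. With LPS and melatonin at the same doses the groups held 275, 146, 183, 125 and 87 counts. At 1 mM this was at least 33.4-fold higher with LPS, against the same floor; at the other doses the few counts without LPS lay mostly in single libraries, and no fold is given. The small RNA itself, Mir155, had 0 counts in all 36 libraries, so levels are those of the host transcript.

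**Figure D3:**
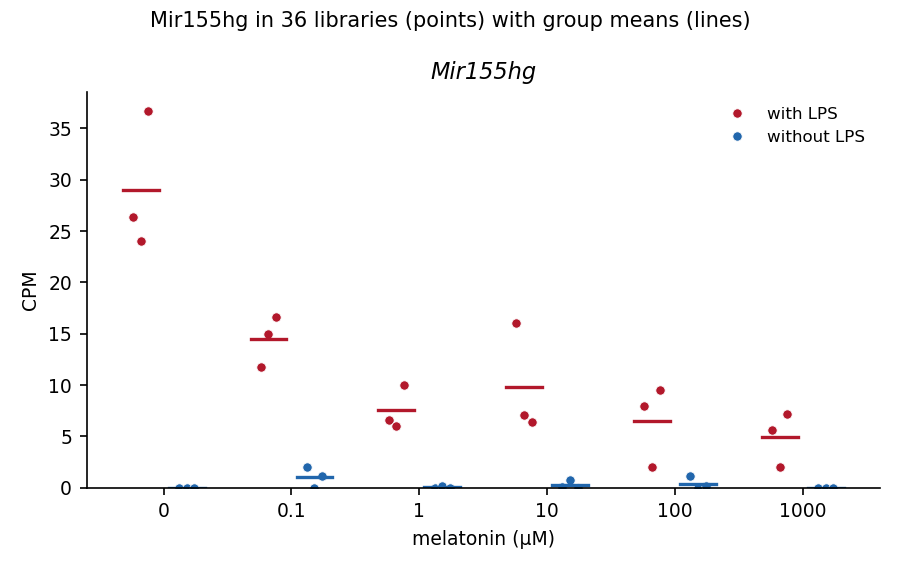
Mir155hg in CPM (y axis) at each melatonin dose in µM (x axis; 0 marks LPS or solvent, 1000 is 1 mM), with LPS in red and without LPS in blue. Points are libraries and lines are means of 3. The LPS libraries lie at 24.0 to 36.7 CPM, above all libraries with LPS and melatonin (2.01 to 16.7 CPM), and libraries without LPS reach at most 2.02 CPM.

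Of 14 genes listed as activators of the miR-155 host gene, mostly of the NF-kB, AP-1 and Ets families, 6 rose and 4 fell after LPS. In this comparison 16.5% of all genes were called. Ets2 rose by 2.78 ± 0.21 (167 against 24.2 CPM in solvent, adjusted p = 2.20e-14), the NF-kB subunit gene Nfkb1 by 2.08 ± 0.18 (207 against 49.1 CPM, adjusted p = 5.63e-12), and the AP-1 gene Fosl1 was at 57.2 CPM against 0.413 CPM. Fos, another AP-1 gene, fell (-3.37 ± 0.24, 46.9 against 486 CPM). With LPS and 1 mM melatonin 3 of the 14 were called relative to LPS (4 by DESeq2), beside 7.55% of all genes. Ets2 fell (-1.49 ± 0.19, 59.3 against 167 CPM with LPS, adjusted p = 3.61e-07) and Nfkb1 fell (-0.97 ± 0.18, 106 against 207 CPM, adjusted p = 1.73e-04). Fos rose by 0.99 ± 0.23 there (93.2 against 46.9 CPM, adjusted p = 0.00269). In the RefSeq promoter window of Mir155hg (250 bases before to 50 after its start), neither the AP-1 letters TGANTCA, found in 7.81% of 32851 promoters on either strand, nor the NF-kB consensus (8.46%) occurred. Such a search covers that window only.

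Reported miR-155 targets moved in both directions after LPS. Of 20 listed, 2 rose and 2 fell after LPS, where 16.5% of all genes were called. With LPS and 1 mM melatonin, 0 rose and 5 fell relative to LPS (4 called by DESeq2), where 7.55% of all genes were called. The kinase gene Ikbke rose after LPS (3.23 ± 0.46, 94.5 against 10.0 CPM in solvent, adjusted p = 4.53e-07), as did the transcription factor gene Cebpb (1.49 ± 0.23, 120 against 42.6 CPM, adjusted p = 2.48e-06). Inpp5d, which encodes the phosphatase SHIP1, fell (-0.79 ± 0.17, 62.7 against 109 CPM, adjusted p = 6.40e-04), as did the growth factor receptor gene Csf1r (-1.71 ± 0.22, 1542 against 5057 CPM, adjusted p = 5.35e-08). With LPS and 1 mM melatonin, the adaptor gene Sla fell (-1.13 ± 0.23, 24.9 against 54.1 CPM with LPS), as did Cebpb (-0.81 ± 0.22, 68.4 against 120 CPM) and Jarid2, a partner of the Polycomb complex (-0.67 ± 0.19, 63.3 against 101 CPM). The calls at 1 mM were lost for Cebpb without LPS replicate 3 or LPS with 1 mM replicate 2 (adjusted p up to 0.125), and for Jarid2 without LPS replicate 3 or LPS with 1 mM replicate 1 (up to 0.0725), while Sla kept its call without any 1 of the 6 libraries. Cebpb and Jarid2 also lost these calls with library totals alone and with only the groups compared in the fit. The median of the list was 0.13 after LPS and 0.18 with LPS and 1 mM melatonin, against -0.02 and 0.02 over all genes. The letters AGCATTA, which pair with the miR-155-5p seed, occurred in the 3′UTR of 15 of the 20, against 9.27% of 11724 tested genes with a 3′UTR; the list was drawn from reported targets, for which such a match was often the ground. For 5 of the targets named above, 1 site each is shown with the match in capitals, to set beside the seed above.
Ikbke: ggccaacaaactAGCATTActttgactgtc
Cebpb: ttttccgtttcgAGCATTAaagtgaagaca
Inpp5d: atgtttttaaaaAGCATTAaagaaaaccat
Jarid2: tgattttgttttAGCATTAaactgttcaag
Sla: ttctaagtgggaAGCATTAcactttgccaa

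Other miRNA hosts were read the same way. Of 9 tested, Mir22hg rose after LPS (1.73 ± 0.30, 47.3 against 14.2 CPM in solvent, adjusted p = 1.85e-05) and Mir17hg, host of the miR-17 to miR-92 cluster, fell (-1.57 ± 0.35, 23.0 against 68.3 CPM, adjusted p = 7.96e-04). Of all genes, 16.5% were called after LPS and 7.55% between LPS with 1 mM melatonin and LPS. With LPS and 1 mM melatonin Pvt1, beside the Myc gene, fell relative to LPS (-1.58, 6.86 against 20.6 CPM, adjusted p = 0.0407), a call lost without LPS replicate 1 or 3 or LPS with 1 mM replicate 1 or 3 (adjusted p up to 0.166). Scaling by library totals alone and a fit of only the groups compared also ended this call. The genes most like Mir155hg over the 12 group means were Rab8b and C3ar1 (both r = 0.983) and Ufm1 (0.980).

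The 4 snoRNA hosts showed no call between LPS and solvent or between any dose and its control, apart from 1 for Gas5. Gas5 (chr1:161034422-161038539, plus strand), a host known to build up when growth stops or translation is blocked, was at 17, 18.6 and 17.3 CPM after LPS, against 27.9, 25.1 and 29.2 CPM in solvent. The ranges did not overlap, and Gas5 did not pass. All 4 proliferation genes read as a check fell after LPS, such as Mki67 (327 against 2259 CPM in solvent), and 3 of them rose with LPS and 1 mM melatonin; their part in the Gas5 levels was not tested. With LPS and melatonin the group means were 19.99, 23.3, 22.2, 15.2 and 24.7 CPM from 0.1 µM to 1 mM, and with melatonin alone 16.8, 19.9, 20.9, 31.9 and 24.7 CPM. At 100 µM, Gas5 was at 22.0, 10.6 and 12.9 CPM with LPS and melatonin, against 22.7, 31.3 and 41.6 CPM with melatonin alone. This was the 1 call, a log2 fold change of -1.07 ± 0.33 (SE, n = 3 each, edgeR adjusted p = 0.0193), and it was lost without melatonin 100 µM replicate 3 (-0.84, adjusted p = 0.149), without LPS with 100 µM replicate 2 (-0.87, 0.144) or replicate 3 (-0.97, 0.0996), and without the filter on low counts (adjusted p = 0.0514). Gas5 overlaps Zbtb37 on the opposite strand, which held 4975 counts over all libraries against 5191 for Gas5, and the strand setting of the counting is not given in the sources used here, so reads of the pair may be shared.

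Snhg1 (chr19:8723475-8726443, plus strand), which holds 8 annotated snoRNAs, was the most abundant of the 4. It was at 51.3, 49.5 and 43.2 CPM after LPS, against 34.8, 43.8 and 42.8 CPM in solvent. With LPS and 1 mM melatonin it was at 43.8, 36.1 and 16.4 CPM, the last in the least deep library, and the log2 difference of -0.57 ± 0.27 from LPS did not pass (adjusted p = 0.217). With melatonin alone it reached 67.7, 52.9 and 54.6 CPM at 0.1 µM and 35.7, 79.5 and 61.3 CPM at 1 µM, where 35.7 CPM is the replicate in doubt. Its difference from solvent at 1 µM was 0.54 (adjusted p = 0.600), and 0.80 without the libraries in doubt (adjusted p = 0.243).

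Snhg12 (chr4:132308623-132311024, plus strand) was at 14, 13.4 and 11.9 CPM after LPS, against 25.5, 18.4 and 16.8 CPM in solvent. It was at 20.7, 21.3 and 19.6 CPM with LPS and 100 µM melatonin, against 11.8, 13.3 and 13.0 CPM with melatonin 100 µM. At 1 mM the means were in the other order and the ranges overlapped, with 9.5, 9.06 and 12.4 CPM with LPS and melatonin, against 18.3, 15.9 and 10.5 CPM with melatonin alone. Neither pair passed, and the interaction at 100 µM was 1.32 ± 0.49 (adjusted p = 0.306). Snhg5 (chr9:88521050-88522929, minus strand) ranged from 2.89 to 20.7 CPM over the 36 libraries, both within groups of 3: solvent held 2.89, 10.1 and 18.1 CPM, and LPS with 1 µM melatonin 14.3, 20.7 and 3.8 CPM. All 11 neighbouring pairs of groups overlapped for Gas5, Snhg5 and Snhg12, and 10 of 11 for Snhg1.

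**Figure D4:**
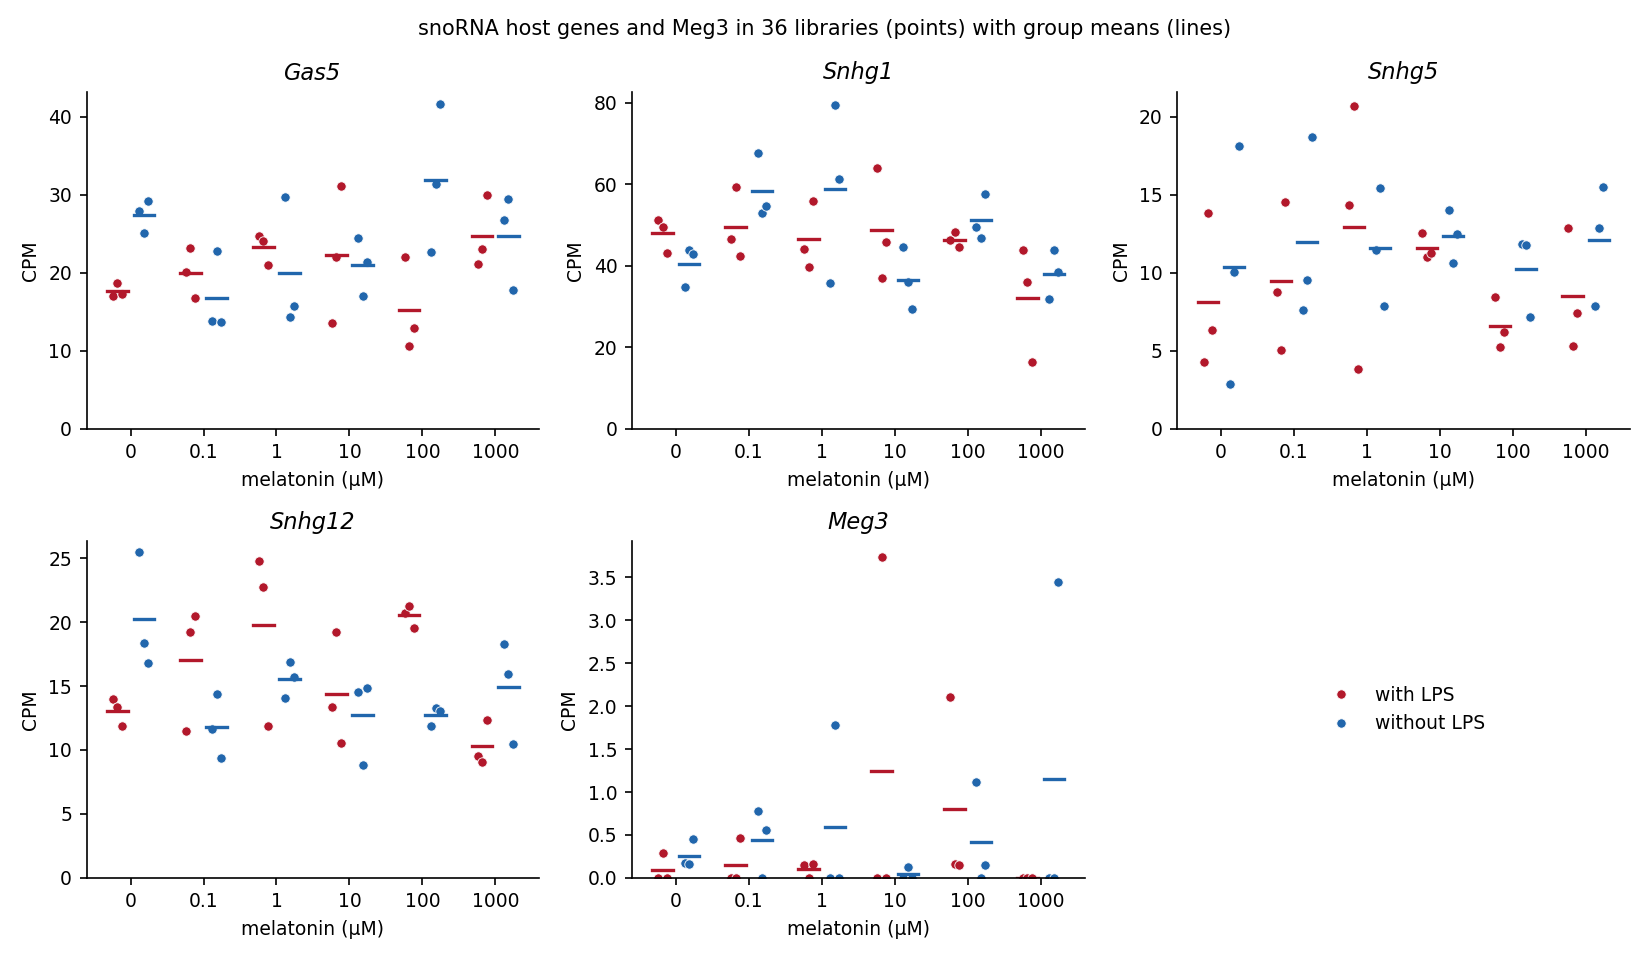
Gas5, Snhg1, Snhg5, Snhg12 and Meg3 in CPM (y axes, each from 0) at each melatonin dose in µM (x axes; 0 marks LPS or solvent, 1000 is 1 mM), with LPS in red and without LPS in blue. Points are libraries and lines are means of 3. Groups overlap widely for Snhg5, and Meg3 stands on single libraries such as 3.45 CPM in melatonin 1 mM replicate 3.

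Factors that act on snoRNA hosts were counted too. Of 11 other tested snoRNA hosts, 0 passed after LPS (0 at an unadjusted p under 0.05, 0 by DESeq2), and Snhg4 fell with LPS and 1 mM melatonin (-1.20 ± 0.31, 14.7 against 33.7 CPM with LPS, edgeR adjusted p = 0.0106; 0.0519 without LPS with 1 mM replicate 3). None of 14 nonsense-mediated decay factors passed by edgeR in either comparison, beside 16.5% and 7.55% of all genes. At an unadjusted p under 0.05 they were 5 after LPS and 2 with LPS and 1 mM melatonin, and DESeq2 called 2 after LPS and 0 at 1 mM. Of 13 proteins of the snoRNA particle and its processing, the nucleolar chaperone gene Npm1 rose (0.51) and Nhp2 fell (-0.55) after LPS, and Ncl (-0.41) and Nop58 (-0.57) fell with LPS and 1 mM melatonin. Of 22 translation factors whose messenger RNAs begin with a pyrimidine run, Btf3 rose (0.70) and Eif4b fell (-0.73) after LPS, and 5 fell with LPS and 1 mM melatonin, among them Eef1g (-0.73, 140 against 231 CPM with LPS), Rpl4 (-0.59) and Pabpc1 (-0.31). Without 1 or another of the 6 libraries compared, the calls of Npm1 (6 of 6 cases), Btf3 (4), Nhp2 (1), Pabpc1 (5), Rpl4 (3) and Nop58 (2) were lost, with adjusted p up to 0.287, while Eif4b, Ncl and Eef1g kept theirs. With only the groups compared in the fit, the 1 mM calls of Ncl, Nop58, Eef1g, Rpl4 and Pabpc1 were lost. Scaling by library totals alone ended those of Ncl, Nop58, Rpl4 and Pabpc1, and the LPS call of Npm1. The 25 snoRNAs annotated inside the 4 hosts (10 in Gas5, 8 in Snhg1, 5 in Snhg12 and 2 in Snhg5) had 0 counts in all libraries. The letters of the cyclic AMP response element, TGACGTCA, occurred in the RefSeq promoter windows of Gas5 and Meg3 and in 1.79% of all promoters.

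Meg3 (chr12:109541001-109571726, plus strand) had 101 counts over the 36 libraries and 0 in 18 of them. Its counts sat in single libraries, with 24 in melatonin 1 mM replicate 3, 21 in LPS with 10 µM melatonin replicate 2, 13 in LPS with 100 µM replicate 1 and 11 in melatonin 1 µM replicate 2. The other 2 libraries of each of these groups held at most 1 count. LPS libraries held 0, 2 and 0 counts and solvent libraries 1, 1 and 3. None of the 6 other listed genes of the Dlk1-Dio3 imprinted region, in which Meg3 lies, had enough counts to be tested.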

How the data were processed

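Total RNA of RAW 264.7 cells was extracted with Trizol and made into Illumina TruSeq libraries, per the labels' protocols. Per the submitters' processing notes, the authors used cutadapt, featureCounts and the build mm10; the aligner, annotation, strand setting and versions are not given in the sources used here. The authors' deposited counts are whole numbers for 53465 genes in 36 libraries, unscaled, per the file headers. The authors' deposited FPKM values, with symbols and biotypes per the file headers, were used only to set levels of different genes side by side. Positions are from GENCODE M21 (mm10), which matched 53274 identifiers (99.64%), and sequences from RefSeq (GRCm38.p6), whose promoter table held 7 of the 8 members.

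Counts were tested with edgeR 4.0.16 (R 4.3.3, limma 3.58.1): filterByExpr by group kept 16988 genes, TMM factors were 0.914 to 1.19, and all 36 libraries entered 1 quasi-likelihood fit with a mean for each treatment. Benjamini-Hochberg adjustment of the two-sided p-values ran over all genes tested in each of 23 comparisons, with a threshold of 0.05; unless another tool is named, every adjusted p is from this edgeR fit. Of these comparisons, 10 (LPS with melatonin over the same melatonin dose and the interactions at 0.1 to 100 µM, 1 mM against 0.1 µM in cells with LPS, and melatonin 10 µM against 0.1 µM) were added after the values were seen. CPM use TMM-scaled totals, and log2 CPM a prior count of 2.

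Members and gene lists were chosen with earlier results of these data known. All members are named. Their fold changes are printed mainly where the unadjusted p was under 0.05, and not every such fold change is printed. Those left out include Neat1, Gas5, Snhg12 and Mir155hg between melatonin 0.1 µM and solvent, and interactions of Mir155hg. From each other list at most 4 tested genes with the smallest adjusted p after LPS and 3 with LPS and 1 mM melatonin are named, if they reached 5 CPM; some results of these lists are not reported here. The genes most alike are those with the highest Pearson correlation over 12 group means among genes of at least 5 CPM, without Gm, Rik and unnamed genes. Alternatives were DESeq2 1.42.0, other scalings, no filter, fewer libraries and a replicate block. The procedure was tested on simulated data.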

Additional observations from a re-analysis of the deposited data

Results flagged for a closer look

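The LPS difference of Malat1 at 1 mM melatonin stood apart from that without melatonin by an interaction test: 0.68 on the log2 scale (edgeR adjusted p = 0.0347 over all genes tested). Leaving out 1 library in turn ended this call in 8 of 12 cases (adjusted p up to 0.184). A fit of only the groups compared did not call it (edgeR adjusted p = 0.234). LPS with 1 mM melatonin was at 2773 to 4755 CPM, against 3577 to 4203 CPM with melatonin 1 mM, and LPS was at 2198 to 2686 CPM, against 3788 to 4174 CPM in solvent. Groups of 3 libraries are too small for the test of a single library that lies far from the others.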

How the results depend on the processing

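Counts of members past the threshold kept within 1.5 times of the value reported in 140 pairs of a comparison and a setting other than leaving out 1 library and moved further in 21, and of the members' fold changes with an unadjusted p under 0.05, only that of Meg3 did not keep its sign. Between LPS with 1 mM melatonin and melatonin 1 mM its value of -5.93 became 0 without melatonin 1 mM replicate 3 (-6.50 to 0 over single libraries left out), and likewise without both melatonin libraries in doubt, since no count was left. Without the filter on low counts, the members called were 2 in place of 1 for melatonin 0.1 µM against solvent and for melatonin 10 µM against 0.1 µM, and 1 in place of 0 for LPS with 1 µM melatonin against LPS and for the interactions at 10 and 100 µM. Without both melatonin libraries in doubt, they were 1 in place of 0 for melatonin 1 mM against solvent, for LPS with 1 µM melatonin against LPS and for the interaction at 10 µM, and 2 in place of 1 for LPS with 1 mM melatonin against melatonin 1 mM and for melatonin 10 µM against 0.1 µM. With only the groups compared in the fit, they were 2 in place of 1 for melatonin 0.1 µM against solvent and melatonin 10 µM against 0.1 µM, 1 in place of 0 for melatonin 10 µM against solvent and for the interactions at 10 and 100 µM, and 0 in place of 1 for the interaction at 1 mM. In that fit, 2 members in place of 0 were called for LPS with 1, 10 or 100 µM melatonin against LPS. DESeq2 called 1 in place of 0 for LPS with 1 µM melatonin against LPS and for the interaction at 100 µM. In the settings that passed Malat1 between LPS with 1 µM melatonin and LPS, its adjusted p was 0.00127 to 0.0338. The cause of these differences was not tested.

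Leaving out 1 library at a time gave 0 to 1 member for the interaction at 1 mM, 1 to 2 for 1 mM against 0.1 µM melatonin in cells with LPS and 2 to 3 for LPS with 100 µM melatonin against melatonin 100 µM. LPS against solvent kept 3 members, 1 of them Mir155hg, which entered the test only through libraries with LPS, and LPS with 1 mM melatonin against LPS 2 throughout (Malat1 0.44 to 0.82, Neat1 0.96 to 1.09). Same-numbered libraries of different groups did not deviate together, with correlations of -0.041 to 0.028 and none over 0.1. No shared effect was seen, but this cannot tell whether such libraries came from 1 culture or day. With the replicate block, Mir155hg passed between LPS with 1 mM melatonin and LPS (-2.66, edgeR adjusted p = 0.0427), and no other call of a member changed. Among all genes, LPS with 1 mM melatonin against LPS called 1282, against 1608 by DESeq2 and 558 with only the groups compared, and the interaction at 1 mM called 287, against 454 and 102. Libraries of one group differed by 8.95 to 37.7 times the counting error (chi-square per degree of freedom), so none was counted as a repeat. Depth limits Meg3 and, without LPS, Mir155hg.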
